A study of Mus musculus with 4 samples.

Results

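The genes described here are the 5 subunits of the transcription factor NF-kB (Rela, Rel, Relb, Nfkb1 and Nfkb2), 4 genes of the IkB family that bind them (Nfkbia, Nfkbib, Nfkbie and Nfkbiz) and Tnfaip3, which encodes the ubiquitin-editing inhibitor A20. These 10 genes were taken by symbol from 24358 in the table, and the level of each is the sum of the FPKM (fragments relative to transcript length and to all mapped fragments) of its transcripts. They had 18 transcripts among 34535. The RNA came from CD301b macrophages, macrophages marked by the surface lectin CD301b, and from F4/80-negative immune cells, both sorted from the dermis of wound beds on day 5 in male C57/Bl6 mice aged 7 weeks. Each population was measured in 2 libraries, and whether these came from separate animals or pools is not stated. No library of macrophages without CD301b was analysed here, so a trait of the CD301b subset cannot be told apart from one of wound macrophages in general.

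NF-kB works as dimers of these subunits, which IkB proteins hold in the cytoplasm of resting cells. Signals from Toll-like, interleukin 1 and TNF receptors activate the IkB kinase, the IkB protein is degraded, and the freed dimer enters the nucleus and switches on inflammatory genes. Among the genes it switches on are several of its own subunits and inhibitors, which makes their mRNA levels part of a feedback loop. Macrophages and dendritic cells both use the pathway, and much of its control acts on protein degradation and location, which mRNA levels do not measure.

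The deposited table gives 1 FPKM per population and an unadjusted p-value per transcript. No spread between libraries could be computed, so no FPKM below carries an error, and levels of neighbouring rank cannot be tested against each other. An adjusted p is the Cuffdiff p-value of a transcript after Benjamini-Hochberg adjustment over all 16921 tested transcripts. A gene was called higher or lower in CD301b macrophages where a transcript had an adjusted p of at most 0.05, no other passed in the opposite direction and the sum pointed the same way. The depth of the libraries is unknown.

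Markers followed the sorted populations in part. All 11 macrophage markers were higher in CD301b macrophages, summing to 8083 FPKM in CD301b macrophages and 2762 FPKM in F4/80-negative cells, and Adgre1, which encodes F4/80, was 557 and 151 FPKM in the same order. Mgl2, which encodes CD301b, went against the label, at 49.2 FPKM in CD301b macrophages and 103 FPKM in F4/80-negative cells. Of 17 dendritic cell markers 14 were lower in CD301b macrophages and none was higher (sums of 114 and 422 FPKM), of 11 neutrophil markers 5 were lower and 1 was higher (2329 and 4295 FPKM), and of 7 tested markers of mast cells and basophils 5 were lower (20.4 and 57.3 FPKM). Among the lower neutrophil markers, Csf3r was called through a minor transcript (3.53 and 7.68 FPKM), with sums of 68.1 and 71.3 FPKM. The higher neutrophil marker, Ngp, was 2.78 and 0.464 FPKM. T cell and natural killer cell markers summed to 36.6 FPKM in CD301b macrophages and 57.3 FPKM in F4/80-negative cells, with 1 of 9 tested markers lower (Klrd1, 4.18 and 37.1 FPKM), 1 higher (Cd4, 18.6 and 4.92 FPKM) and Cd3e at 0.399 and 0.415 FPKM. B cell markers summed to 21.0 and 9.74 FPKM, and of 2 tested Cd79b was higher (18.0 and 5.88 FPKM) and Ebf1 was lower (2.44 and 3.17 FPKM). The call of Ebf1 rested on a transcript at 0.0909 and 2.52 FPKM, while another was 1.86 and 0.423 FPKM and not past the threshold. None of 8 fibroblast and keratinocyte markers passed the Cuffdiff test after adjustment, while 4 had a transcript lower at an unadjusted p under 0.05, as had 13.2% of all tested genes (sums of 3999 and 5869 FPKM). In these bulk samples fewer cells of a type and less RNA per cell cannot be told apart, and the part of other cell types in the results below was not tested.

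Of the 10 genes, 1 was lower in CD301b macrophages, none was higher and 9 did not pass the Cuffdiff test, where 6.20% of the 13039 tested genes were lower and 11.0% were higher. A count of 1 in 10 is no more than the 17.2% of all tested genes called in either direction. At an unadjusted p under 0.05, 3 of the 10 genes had a lower transcript and none a higher one, where 13.2% of all tested genes had a lower and 19.9% a higher one. The gene was Nfkbie, which encodes IkB-epsilon. Nfkbib and Nfkb1 were the next nearest to the threshold. By summed FPKM 8 of the 10 genes were lower in CD301b macrophages and 2, Nfkbiz and Rela, were higher (Rela changed sign when the populations were rescaled), with a median log2 difference of -0.17 on the log2(FPKM + 1) scale, against 0.05 over all tested genes, of which 5823 were lower and 7216 higher.

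**Figure D1:**
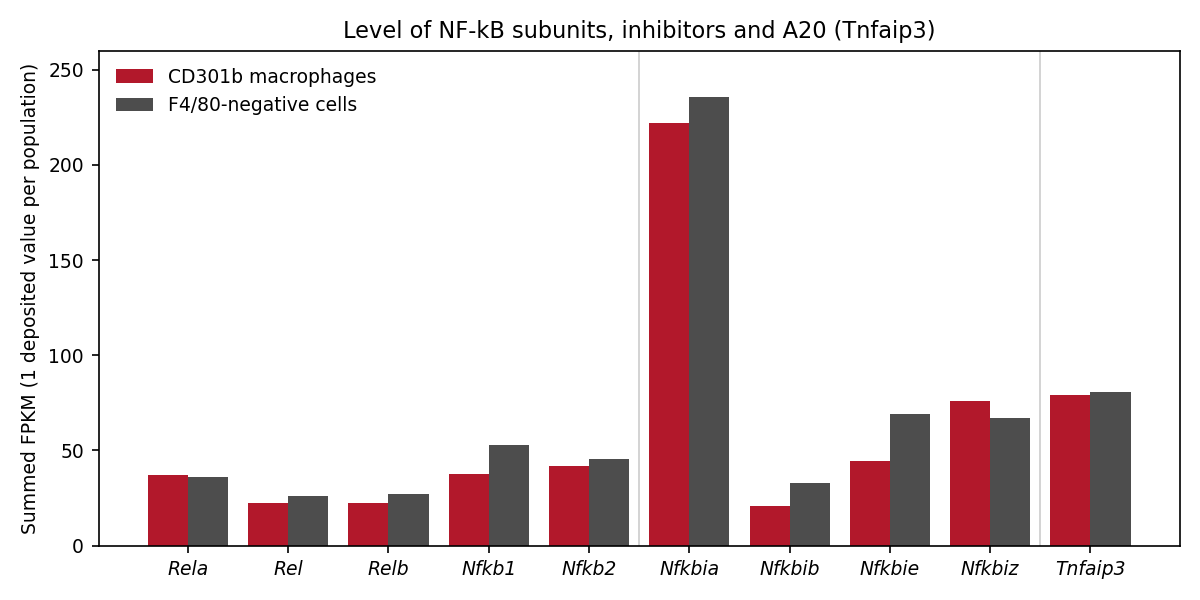
Summed FPKM of the 10 genes (y axis, linear from 0) in CD301b macrophages (red, left bar) and F4/80-negative cells (grey, right bar), in the order subunits, IkB family, Tnfaip3. Each bar is 1 deposited value, so there are no error bars; Nfkbia stands highest at 222 and 236 FPKM, and the bars of Nfkbie differ by 44.5 against 69.1 FPKM.

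Several of these genes carry, just before a listed start, a match to the kappa B consensus, the sequence that NF-kB is known to bind. RefSeq promoter windows (GRCm38.p6, 250 bases before to 50 bases after each start) were found for 7 of the 10 genes, without Nfkb1, Relb and Nfkbiz, and were searched on both strands for the kappa B consensus. It was present for 5 of the 7 genes, Nfkbie, Nfkbia, Nfkb2, Tnfaip3 and Rel, and in the windows of 5.14% of the 27025 genes in the RefSeq table. The windows of Rela and Nfkbib held no match. Nfkb2 had 3 windows and Tnfaip3 had 2, for different starts, and positions below refer to the window listed first. For Nfkb2 that start lies inside the listed gene (chromosome 19, 46300994 to 46312400). The sequences of the other genes shown end at the edge of the listed gene. The sequences below, 5′ to 3′ on the strand of the gene and ending at the last base before the start, are shown because they set the called gene, Nfkbie, beside genes with matches that were not past the threshold; capitals mark the matches.
Nfkbie, chr17:45555450-45555699, plus strand: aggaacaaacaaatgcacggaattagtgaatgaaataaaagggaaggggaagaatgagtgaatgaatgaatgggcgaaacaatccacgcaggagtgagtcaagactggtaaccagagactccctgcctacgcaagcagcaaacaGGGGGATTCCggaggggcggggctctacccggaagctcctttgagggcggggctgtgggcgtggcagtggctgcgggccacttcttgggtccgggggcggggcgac
Nfkbia, chr12:55492648-55492727, minus strand: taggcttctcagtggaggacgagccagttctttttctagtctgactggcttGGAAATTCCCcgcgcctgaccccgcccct
Nfkb2, chr19:46304657-46304736, plus strand: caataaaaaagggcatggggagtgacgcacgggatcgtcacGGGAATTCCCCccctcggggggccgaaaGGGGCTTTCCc
Tnfaip3, chr10:19015411-19015570, minus strand: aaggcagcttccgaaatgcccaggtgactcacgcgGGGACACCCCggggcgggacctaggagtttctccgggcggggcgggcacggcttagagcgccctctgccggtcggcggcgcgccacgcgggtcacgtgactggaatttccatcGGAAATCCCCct
Rel, chr11:23770970-23771089, minus strand: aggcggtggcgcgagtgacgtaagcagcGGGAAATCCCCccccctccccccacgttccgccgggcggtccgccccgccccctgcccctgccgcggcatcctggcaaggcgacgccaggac

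In Nfkbie the match GGGGGATTCC lies 106 to 97 bases before the start. The match of Nfkbia, GGAAATTCCC as read on the gene strand, lies 29 to 20 bases before its start. Nfkb2 holds a stretch of overlapping matches 39 to 29 bases before its start and GGGGCTTTCC 11 to 2 bases before it. In Tnfaip3 a match lies 125 to 116 bases and another 12 to 3 bases before the start, and in Rel overlapping matches lie 92 to 82 bases before it. A second pattern opens with GGG, closes with TTTCC and has any 2 bases between. It is narrower than the consensus before the closing CC but wider after GGG, so its matches need not be consensus matches. This pattern matched at some of the same places in Nfkbia, Nfkb2, Tnfaip3 and Rel but not in Nfkbie, and was present for 1.89% of all genes. A match describes the letters of the window, not binding.

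The 3 Rel-type subunits, which carry the transactivation domain, had close levels in both populations. Rela, which encodes p65, the most widely used activating subunit (NCBI gene 19697, chromosome 19, 5637442 to 5648134, GRCm38.p6), was 37.2 FPKM in CD301b macrophages and 36.1 FPKM in F4/80-negative cells. Rel, which encodes c-Rel, a subunit important in lymphocytes and for some cytokine genes of myeloid cells (chromosome 11, 23736847 to 23770969), was 22.4 FPKM in CD301b macrophages and 26.1 FPKM in F4/80-negative cells. Relb, the activating subunit of the noncanonical pathway and a factor of dendritic cells (chromosome 7, 19606217 to 19629438), was 22.3 and 27.0 FPKM in the same order. These are ratios of 1.03, 0.860 and 0.825 of CD301b macrophages over F4/80-negative cells. The adjusted p was 0.905 for Rela, 0.515 for Rel and 0.431 for Relb, all based on the authors' deposited table.

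Nfkb1 and Nfkb2 encode precursors with IkB-like tails that are processed to the DNA-binding subunits p50 and p52. Nfkb1 (chromosome 3, 135584655 to 135691969) was 37.5 FPKM in CD301b macrophages and 52.9 FPKM in F4/80-negative cells, a 1.41-fold lower value that did not pass the threshold (adjusted p = 0.0774, from the authors' deposited table). Nfkb2 (chromosome 19, 46300994 to 46312400) was 41.7 FPKM in CD301b macrophages and 45.6 FPKM in F4/80-negative cells. Its main transcript gave an adjusted p (the authors' deposited table) of 0.621. Among the 5 subunits Nfkb1 thus had the widest gap between the populations, and Rela the narrowest.

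As shares of the summed FPKM of the 5 subunits, Nfkb1 made up 23.3% in CD301b macrophages and 28.2% in F4/80-negative cells, and Rela 23.1% and 19.2% in the same order. Nfkb2 made up 25.9% in CD301b macrophages and 24.3% in F4/80-negative cells. Rel (13.9% in each) and Relb (13.8% and 14.4%) were the smallest shares in both. The most abundant subunit by FPKM was Nfkb2 in CD301b macrophages and Nfkb1 in F4/80-negative cells. Nfkb1 and Rela, the genes of the classical dimer, stood at a ratio of 1.01 in CD301b macrophages and 1.47 in F4/80-negative cells. The 5 subunits summed to 161 FPKM in CD301b macrophages and 188 FPKM in F4/80-negative cells. With 1 value per population these shares have no error and were not tested.

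**Figure D2:**
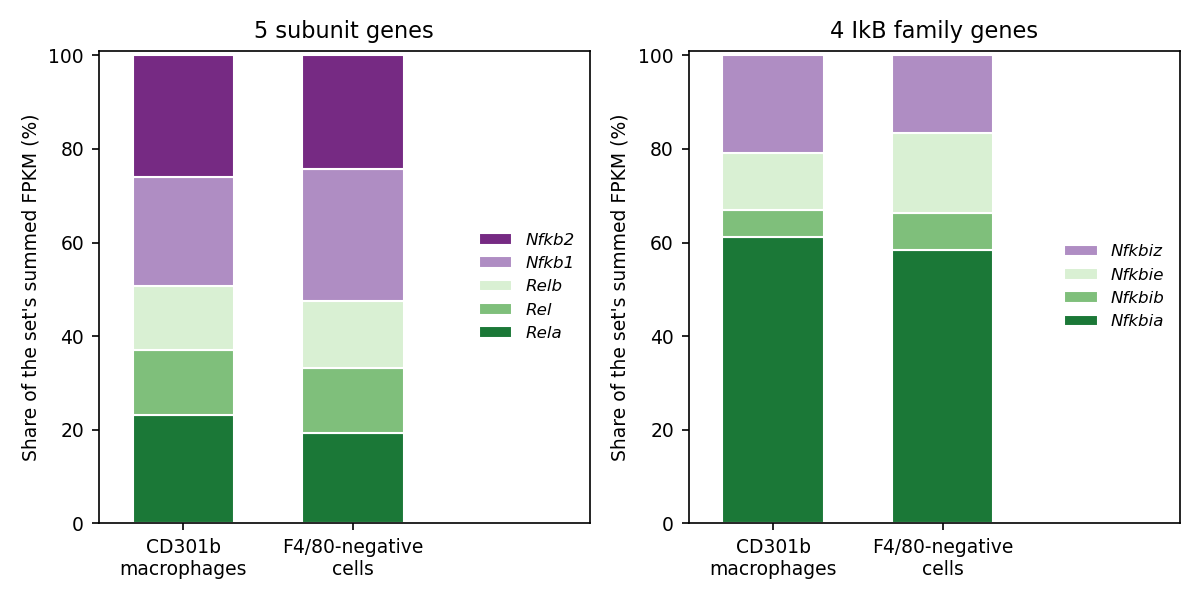
Share of each gene (y axis, percent) in the summed FPKM of the 5 subunits (left panel) and of the 4 IkB family genes (right panel), with CD301b macrophages as the left bar and F4/80-negative cells as the right bar of each panel. Nfkb1 takes 23.3% and 28.2% of the subunits, and Nfkbia takes 61.1% and 58.3% of the IkB family.

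Among the inhibitors, Nfkbie was the gene called lower. It encodes IkB-epsilon, an inhibitor known to hold dimers of c-Rel and p65 (NCBI gene 18037, chromosome 17, 45555700 to 45563169, GRCm38.p6). Nfkbie was 44.5 FPKM in CD301b macrophages and 69.1 FPKM in F4/80-negative cells, a 1.55-fold lower level and a log2 difference of -0.62. The main transcript of Nfkbie, at 43.3 FPKM in CD301b macrophages and 69.1 FPKM in F4/80-negative cells, carried the call, with an adjusted p (the authors' deposited table) of 0.00931. A second Nfkbie transcript, with a coding length of 1113 bases where the main transcript has 1092, was 1.25 and 0.0111 FPKM and gave an adjusted p (the authors' deposited table) of 0.462. Under the stricter Benjamini-Yekutieli adjustment the adjusted p of Nfkbie was 0.0960 and no member was called.

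Nfkbib, which encodes IkB-beta (chromosome 7, 28758251 to 28766644), had a ratio of the same size as Nfkbie. It was 21.0 FPKM in CD301b macrophages and 32.7 FPKM in F4/80-negative cells, a 1.56-fold lower level. Its main transcript (18.6 and 29.0 FPKM) lay just outside the threshold, with an adjusted p (the authors' deposited table) of 0.0554. When transcripts under 1 FPKM in both populations were left out of the adjustment, the adjusted p of Nfkbib was 0.0496, and 2 genes, Nfkbib and Nfkbie, were lower.

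Nfkbia, which encodes IkB-alpha, the inhibitor resynthesised within minutes of activation (chromosome 12, 55489409 to 55492647), was the highest of the 10 genes in both populations. It was 222 FPKM in CD301b macrophages and 236 FPKM in F4/80-negative cells, above 97.1% and 97.4% of tested genes. The adjusted p of Nfkbia, from the authors' deposited table, was 0.818. Per unit of Rela it stood at 5.96 in CD301b macrophages and 6.53 in F4/80-negative cells. Nfkbie per unit of Rel stood at 1.99 in CD301b macrophages and 2.65 in F4/80-negative cells, and Nfkbib per unit of Rela at 0.563 and 0.907. Nfkbia made up 61.1% of the summed FPKM of the 4 IkB genes in CD301b macrophages and 58.3% in F4/80-negative cells, while Nfkbie made up 12.3% and 17.1% and Nfkbib 5.77% and 8.10%. The difference between Nfkbie and Nfkbia in this respect was not tested.

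Nfkbiz, which encodes the nuclear IkB-zeta, a coactivator of secondary response genes such as Il6 (chromosome 16, 55811375 to 55838954), had the largest ratio in favour of CD301b macrophages. It was 75.8 FPKM in CD301b macrophages and 66.9 FPKM in F4/80-negative cells, a ratio of 1.13. Its main transcript (72.2 and 63.4 FPKM) gave an adjusted p (the authors' deposited table) of 0.569. Tnfaip3, whose product A20 removes activating ubiquitin chains upstream of the IkB kinase (chromosome 10, 19000910 to 19015410), was 79.2 FPKM in CD301b macrophages and 80.6 FPKM in F4/80-negative cells. Its main transcript (77.7 and 80.2 FPKM) gave an adjusted p (the authors' deposited table) of 0.899.

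The order of levels was similar in both populations at the top. In CD301b macrophages Nfkbia was followed by Tnfaip3, Nfkbiz, Nfkbie, Nfkb2, Nfkb1, Rela, Rel, Relb and Nfkbib. In F4/80-negative cells Nfkbia was followed by Tnfaip3, Nfkbie, Nfkbiz, Nfkb1, Nfkb2, Rela, Nfkbib, Relb and Rel. All 10 genes were in the upper part of the range of tested genes, above 73.5% (Nfkbib) to 97.1% (Nfkbia) of them in CD301b macrophages and above 79.3% (Rel) to 97.4% (Nfkbia) in F4/80-negative cells. Nfkbia, Tnfaip3, Nfkbiz and Nfkbie each had a higher FPKM than every subunit in both populations.

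Nfkb1, Rel, Rela and Nfkbia each had only 1 listed transcript. Each of the other genes drew most of its level from a dominant transcript, the same in both populations. For Nfkbiz this was the transcript with a coding length of 1887 bases (629 residues), at 95.3% of the summed FPKM in CD301b macrophages and 94.8% in F4/80-negative cells. A second Nfkbiz transcript with a coding length of 2184 bases (728 residues) had 3.54 and 3.51 FPKM, and the third, of the same coding length, was listed at 0 in both. Nfkb2 had 82.9% of its level in CD301b macrophages and 85.1% in F4/80-negative cells in 1 of 3 transcripts, which all code for 899 residues. Nfkbib had 88.5% in the main of its 2 transcripts in each population, and these code for the same 359 residues in length. For Relb the transcript coding for 555 residues carried nearly all of the FPKM, with the 558-residue transcript at 0.00760 FPKM in CD301b macrophages and 0.0115 FPKM in F4/80-negative cells. The second transcript of Tnfaip3 was 1.51 FPKM in CD301b macrophages and 0.407 FPKM in F4/80-negative cells (adjusted p = 0.429, from the authors' deposited table). Of the 18 transcripts, 16 were tested and the main Nfkbie transcript was the only 1 called, where 14.2% of all tested transcripts were called. How fragments shared by transcripts of a gene were divided rests on the authors' estimate.

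The ratios at which the deposited test made calls put these values in context. Among 2714 tested transcripts with a mean of 20 to 100 FPKM, where most of the 10 genes lie, none of 1183 with a ratio under 1.2 in either direction was called. Of 871 with a ratio from 1.2 to 1.5, 3.90% were called, and of 392 with a ratio from 1.5 to 2, 85.5%. Of 268 with a ratio of 2 or more, 73.1% were called, so the share did not rise steadily with the ratio. A difference of less than about 1.5-fold between the populations was therefore mostly not detectable by this test at 20 to 100 FPKM. Nfkbia, at 222 and 236 FPKM, lies above that range. The 7 genes that differed by at most the 1.21-fold of Relb, Nfkbia included, are not shown to be equal.

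**Figure D3:**
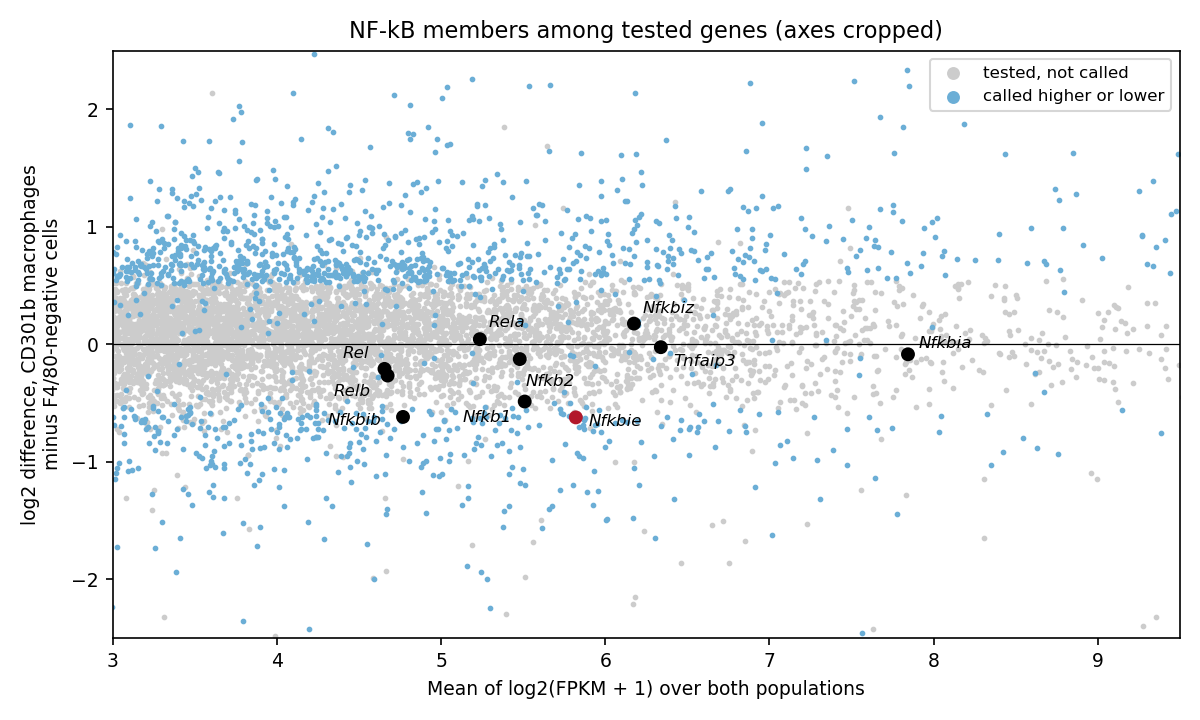
Each point is a tested gene: the x axis is the mean of log2(FPKM + 1) over both populations and the y axis the log2 difference, CD301b macrophages minus F4/80-negative cells, with both axes cropped. Grey points were not called, blue points were called, black points are the 9 NF-kB genes not past the threshold and the red point is Nfkbie at -0.62, with Nfkbib, not called, at the same height.

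Genes with the most similar pair of levels were found by Euclidean distance between log2(FPKM + 1) values over the 2 populations, a likeness that rests on 2 values per gene. Nearest to Nfkbie were Srxn1 (43.7 FPKM in CD301b macrophages and 68.3 FPKM in F4/80-negative cells), Tra2a (45.4 and 70.2 FPKM) and Coq10b (44.9 and 67.4 FPKM), at distances of 0.0316 to 0.0380. Nearest to Nfkbiz, the gene with the largest positive difference, were Prcp (75.5 and 66.3 FPKM), B4galt1 (75.7 and 65.8 FPKM) and Tcp1 (77.0 and 68.4 FPKM). Their distances were 0.0138 to 0.0389. Of the neighbours of Nfkbie, Srxn1 and Tra2a were called lower and Coq10b was not past the threshold. Of those of Nfkbiz, Tcp1 was called higher, while Prcp and B4galt1 were not past it. Genes with nearly the same levels thus did not always get the same call.

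Around the 10 genes, the receptors that signal to NF-kB were more often higher in CD301b macrophages. Of 22 tested receptors 10 were higher (45.5%, against 11.0% of all tested genes), 2 were lower and 10 did not pass. The receptor list, like the others, was chosen with earlier results of these data known, so this contrast describes and does not test. Their median log2 difference was 0.52. Of the 10 higher receptors 9 were Toll-like receptors, which sense microbial and damage molecules. Tlr8 was 52.0 FPKM in CD301b macrophages and 14.3 FPKM in F4/80-negative cells (3.64-fold higher), Tlr7 was 59.0 and 17.3 FPKM (3.40-fold), and Tlr1 was 58.0 and 17.2 FPKM (3.37-fold). Tlr4, the endotoxin receptor, was 35.0 FPKM in CD301b macrophages and 13.5 FPKM in F4/80-negative cells (2.59-fold). Clec7a, which encodes the beta-glucan receptor dectin-1, was lower at 110.3 and 219.8 FPKM in the same order, and so was Nod2, a sensor of bacterial cell wall fragments, at 12.7 and 21.7 FPKM. The TNF receptor Tnfrsf1b (136 and 122 FPKM) and Tlr2 (165 and 127 FPKM) were not past the threshold. Macrophage markers moved with these receptors, 11 of 11 being higher.

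Genes between the receptors and the IkB kinase, the kinase included, had no common direction. Of 28 adaptors and kinases of the canonical pathway 4 were lower (14.3%, against 6.20% of all tested genes), 3 were higher (10.7%, against 11.0%) and 21 did not pass. Their median log2 difference was -0.03. Malt1, the paracaspase of the CARD-BCL10-MALT1 complex, was 11.5 FPKM in CD301b macrophages and 31.6 FPKM in F4/80-negative cells, 2.74-fold lower. Ripk2, the kinase downstream of Nod2, was 16.7 and 29.6 FPKM (1.77-fold lower), and Irak2, a kinase of interleukin 1 and Toll-like receptor signalling, was 28.1 and 44.9 FPKM (1.60-fold lower). Irak4, the kinase that starts that cascade, was higher at 14.3 FPKM in CD301b macrophages and 9.34 FPKM in F4/80-negative cells, and Irak1 was higher at 28.6 and 22.6 FPKM. Irak1 was called through its main transcript (18.1 and 10.6 FPKM). Its other tested transcripts pointed the other way (9.30 and 10.5 FPKM, 0.992 and 1.23 FPKM) and were not past the threshold. The call of Ikbkb, the catalytic IkB kinase beta, as lower rested on a minor transcript (1.63 and 3.06 FPKM), while its main transcript was 18.0 and 19.5 FPKM and not past the threshold. Ikbkg, the regulatory subunit NEMO and the third higher gene, was 6.74 and 4.25 FPKM, named here after its values were seen. Myd88 (64.3 and 70.8 FPKM) and Tab2 (53.0 and 38.0 FPKM) had the highest mean FPKM over both populations among those that did not pass.

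In the noncanonical pathway, which releases the Relb and Nfkb2 products, 1 of 6 tested genes was lower and none was higher (16.7% called, against 17.2% of all tested genes), with a median log2 difference of -0.14. The gene was Map3k14, which encodes the NF-kB-inducing kinase, at 14.2 FPKM in CD301b macrophages and 30.3 FPKM in F4/80-negative cells, 2.14-fold lower. Relb and Nfkb2, its downstream subunits, were 0.825 and 0.915 times the F4/80-negative level and not past the threshold, as given above. Birc3, a ubiquitin ligase that restrains that kinase, was 63.2 and 61.8 FPKM, and Traf3, its partner, was 6.27 and 7.29 FPKM.

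Other regulators of the same kinds as the 10 genes gave 3 calls in 3 lists. Of 9 other IkB family and nuclear regulators 1 was higher (11.1%, against 11.0% of all tested genes) and none was lower. It was Nkap, at 4.24 FPKM in CD301b macrophages and 2.29 FPKM in F4/80-negative cells, named after its values were seen. Bcl3, a nuclear IkB protein that binds p50 and p52, was 52.4 and 59.9 FPKM and not past the threshold. Of 13 A20 partners and other deubiquitinases 1 was lower and 1 was higher (15.4% called, against 17.2% of all tested genes). Tnip3, an A20-binding protein, was 6.08 FPKM in CD301b macrophages and 16.1 FPKM in F4/80-negative cells, 2.65-fold lower, and Usp21 was 12.2 and 7.61 FPKM. None of 5 IKK-related kinases and adaptors was past the threshold in the Cuffdiff test of the authors' deposited table, with Tbk1 at 21.7 and 21.4 FPKM and Tank at 33.6 and 34.8 FPKM. At an unadjusted p under 0.05, 2 of the 5 had a higher transcript and none a lower one, beside 19.9% and 13.2% of all tested genes.

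Inducible target genes of NF-kB were more often lower in CD301b macrophages. Of 44 targets 15 were lower (34.1%, against 6.20% of all tested genes), 2 were higher and 27 did not pass. The list was chosen with earlier results of these data known, so this contrast is a description and no test. Their median log2 difference was -0.34. Ccr7, the receptor of migrating dendritic cells, was 8.39 FPKM in CD301b macrophages and 63.4 FPKM in F4/80-negative cells (7.56-fold lower), and Ccl22 was 7.62 and 49.4 FPKM (6.47-fold lower). Traf1, a signalling adaptor, was 12.0 and 41.2 FPKM (3.43-fold lower), and Il6, a cytokine for which IkB-zeta is a known coactivator, was 17.3 and 48.3 FPKM (2.80-fold lower). Il10, the anti-inflammatory cytokine, was higher at 15.2 FPKM in CD301b macrophages and 6.19 FPKM in F4/80-negative cells, and Tnf was higher at 53.7 and 36.5 FPKM. Saa3 (618 and 651 FPKM) and Cxcl2 (447 and 464 FPKM), both abundant, were not past the threshold. Bcl2a1a and Bcl2a1d, both lower, and Bcl2a1b (171 and 242 FPKM, not past the threshold) are close copies whose reads may not be told apart. Bcl2a1a and Bcl2a1d each count among the 15 lower targets. Of the 15 lower targets, Ccr7 and Ccl22 also stand in the list of dendritic cell markers, 14 of 17 of which were lower in CD301b macrophages. This overlap covers only genes written in both lists. The part of dendritic cells, neutrophils or other cell types in the remaining lower targets was not tested.

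**Figure D4:**
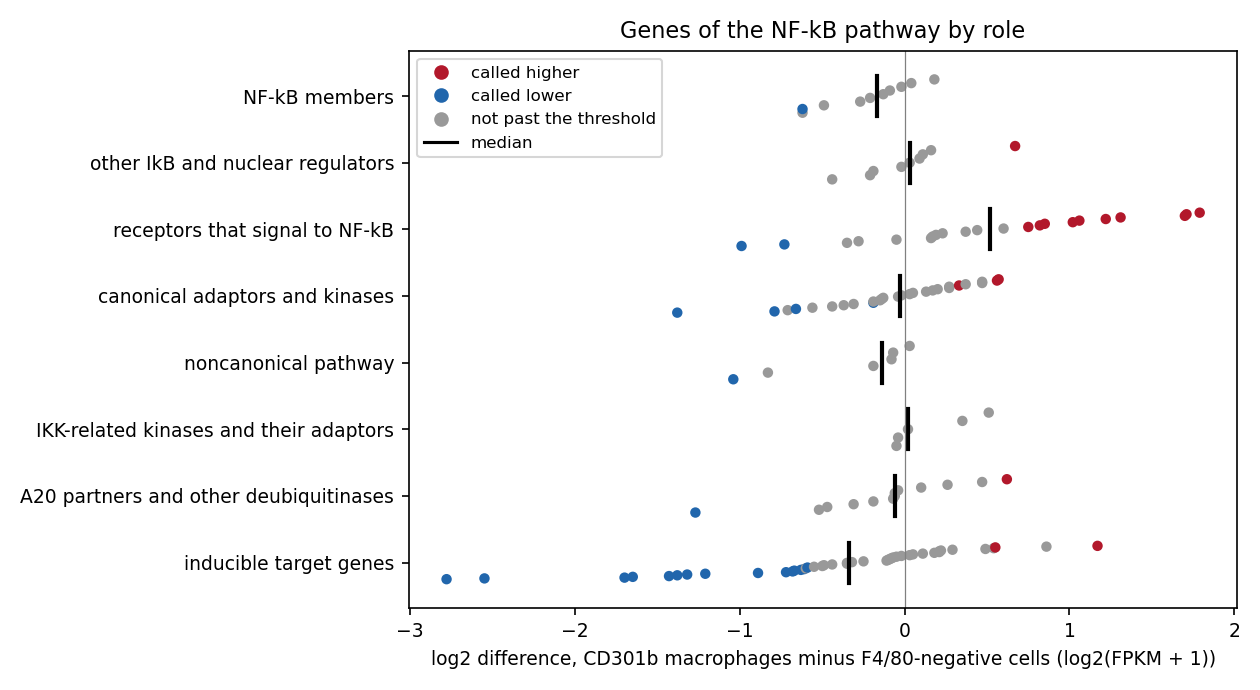
Log2 difference (x axis, CD301b macrophages minus F4/80-negative cells, log2(FPKM + 1)) of each tested gene of the NF-kB genes and 7 lists of the pathway, 1 row per list. Red points were called higher, blue points lower and grey points not, and the black bar is the list's median, 0.52 for receptors, -0.17 for the 10 NF-kB genes and -0.34 for targets.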

How the data were processed

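Reads were processed by the authors; the tools listed in the submitters' processing notes are TopHat2 (2.0.2) and Cuffdiff (2.0.2), with mm9 as build. Not given in the sources used here are the counting settings, strand included, and how libraries were combined into 1 value. Per the labels' protocols the 2 libraries of each population were made with an Illumina TruSeq mRNA kit. The authors deposited 1 table with an FPKM per transcript and population and an unadjusted p-value per transcript, with a lower limit of 5e-05. Separate animals are not stated, so the p-values may measure technical spread alone. The deposited calls equal a Benjamini-Hochberg adjustment at 0.05 over 16921 tested transcripts (2408 calls). Of the accessions 97.1% were found in RefSeq on GRCm38.p6, and 99.2% of these loci overlapped the gene there. The deposited coordinates thus differ from the named build, mm9, and RefSeq positions on GRCm38.p6 are printed.

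FPKM was summed by symbol, after 56 transcripts whose symbol had become a date were renamed by accession. With no values per library, no model was fitted here. Differences are of log2(FPKM + 1), which understates changes of low genes. Coding lengths are from GENCODE M21. In each list, up to 4 called genes per direction at 10 FPKM or more and the 2 most abundant uncalled ones were named. The 10 genes and the lists were chosen with earlier results of these data known. Python 3.11.15, pandas 2.3.3 and numpy 2.4.6 were used.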

Additional observations from a re-analysis of the deposited data

How the results depend on the processing

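Across 151 recomputed values, 130 stayed on their side of the threshold or within 0.1 of the reported log2 difference (for a share, unchanged). Many of these could not change, so the tally is no measure of robustness. Every transcript of the 10 genes has a protein-coding accession, so keeping only such accessions left all their values, shares included, as they were. Stricter adjustments or thresholds cannot add a call to a gene not called before. The number of NF-kB genes lower in CD301b macrophages was 1 under 4 of 6 call rules. Among these, keeping protein-coding accessions or the most abundant transcript could not change it. Both kept the main Nfkbie transcript with the same adjusted p. The number was 2 (Nfkbie and Nfkbib) with transcripts at 1 FPKM or more, where fewer transcripts entered the adjustment. It was 0 with the Benjamini-Yekutieli adjustment, which is stricter by construction. That adjustment called 363 genes lower and 690 higher in all, against 808 and 1432, and a threshold of 0.01 called 461 and 848. Scaling each population to its median gene lowered all differences by about the same amount. The median difference of the 10 genes became -0.28 (from -0.17), and the list medians became 0.41 for receptors, -0.14 for canonical adaptors and kinases, -0.17 for A20 partners, -0.08 for other IkB regulators and -0.09 for IKK-related kinases, the last pair changing sign. Rela changed sign as well, to -0.07 under that scaling and -0.03 when each population was scaled to the same FPKM total. The direction of Rela and of those lists therefore depends on the scaling. No paired analysis was possible because the table holds 1 value per population, and leaving out each library could not be run for the same reason. The unknown depth and the missing spread limit every value.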
